A study of Mus musculus with 20 samples.

Results

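Guanylate-binding proteins (GBPs) are GTPases of the dynamin superfamily that interferon and microbial products switch on in macrophages and microglia. The 10 mouse genes Gbp2, Gbp2b, Gbp3, Gbp4, Gbp5, Gbp6, Gbp7, Gbp8, Gbp9 and Gbp10 were selected by symbol from the 55487 Ensembl genes of a count table. The rule for membership was the symbol alone, with no threshold on a measured value. RNA had been sequenced from BV-2 cells, an immortalised microglial line from C57BL/6 mouse brain with genotype WT in the labels, in 4 groups of 5 cultures. Young cells were low-passage control cultures and aged cells came from the same line after long-term cultivation, so that age here means time in culture and not the age of an animal. Each was left untreated or received bacterial lipopolysaccharide (LPS, from Escherichia coli) at 100 ng/ml for 6 hours. The labels number the batches 1 to 5, and every batch holds 1 culture of each group. All 20 cultures share one cell line, and frozen aged and control cells were thawed together. The sources used here do not say whether the aged replicates came from separate long-term cultures, so p-values may measure only the spread between cultures of 1 aged stock.

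GBPs dimerise on binding GTP and coat intracellular bacteria, the vacuoles that hold parasites, and bacterial LPS itself. They break open these membranes and bring LPS to caspase-11, which cleaves gasdermin D in the non-canonical inflammasome pathway. LPS reaches their genes mainly in a relay: Toll-like receptor 4 induces interferon-beta, and signalling from the interferon receptor then acts on interferon-stimulated response elements (ISREs). Interferon-gamma acts through gamma-activated sites (GAS).

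Libraries held 11371508 to 16829292 counts. Levels below are in CPM, the usual scale of counts relative to library size, with library sizes scaled by the trimmed mean of M-values (TMM), whose factors ran from 0.891 to 1.08. A count of 3, taken as the floor of detection, corresponded to 0.165 to 0.296 CPM in a library. The summed level of 13 markers of microglia and macrophages was 2640 to 5080 CPM over the libraries. Of 3 markers of resting microglia on that list, Tmem119 was at a mean of 17.8 CPM in young and 18.0 CPM in aged untreated cultures, while 2 were low, Cx3cr1 at a mean of 1.05 CPM in young and 0.501 CPM in aged untreated cultures and P2ry12 at 1.18 and 0.836 CPM. All 4 markers of T and NK cells, 4 of 5 of neurons and 3 of 4 of astrocytes had at most 3 counts in every library. The aged LPS library of batch 3 and the young untreated library of batch 1 stood high for the family. Some of the fitted changes and the shares are also given without 1 of them. Pooled ratios and correlations were not computed without them.

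The genes lie in 2 clusters of the mouse genome (GRCm38). Gbp5 (ENSMUSG00000105504), Gbp7 (ENSMUSG00000040253), Gbp3 (ENSMUSG00000028268), Gbp2b (ENSMUSG00000040264) and Gbp2 (ENSMUSG00000028270) follow one another on the plus strand of chromosome 3, from 142493978 to 142638008, a span of 144.0 kb. Gbp8 (ENSMUSG00000034438), Gbp9 (ENSMUSG00000029298), Gbp4 (ENSMUSG00000079363), Gbp10 (ENSMUSG00000105096) and Gbp6 (ENSMUSG00000104713) lie on the minus strand of chromosome 5, from 105014150 to 105293698, a span of 279.5 kb. The chromosome 3 genes held nearly all counts: Gbp2 had 19550 over the 20 libraries, Gbp3 17711, Gbp7 7285 and Gbp5 5394. Gbp6 was the only chromosome 5 member with more than 8 counts in all, at 501. Gbp6 and Gbp10 may be undercounted, since 90.2% and 82.5% of the 50-base windows in a single transcript of each recur in another gene. That transcript was the one with the longest coding sequence, of 2604 bases for Gbp6, whose exons together cover 5954. The split by chromosome was not complete, since Gbp2b, whose annotated end is 1422 bases from the start of Gbp2, had 14 counts.

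Upstream sequences were available for the 5 chromosome 3 genes only, and these are shown. Of them 4, all but Gbp2b, were higher with LPS in both ages, as was Gbp6 of chromosome 5. No binding at these sequences was measured. They are the 250 bases before the annotated start in RefSeq (GRCm38.p6), on the plus strand. Capitals mark matches to the ISRE core, spelled GAAANNGAAA and searched on both strands; the matches in all 5 sequences read in the minus orientation, as TTTC pairs.
Gbp5, chr3:142496684-142496933: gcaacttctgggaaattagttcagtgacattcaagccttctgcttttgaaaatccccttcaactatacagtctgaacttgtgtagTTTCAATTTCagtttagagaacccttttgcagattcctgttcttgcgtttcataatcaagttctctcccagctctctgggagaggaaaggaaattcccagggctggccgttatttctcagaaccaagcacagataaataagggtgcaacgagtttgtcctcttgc
Gbp7, chr3:142530086-142530335: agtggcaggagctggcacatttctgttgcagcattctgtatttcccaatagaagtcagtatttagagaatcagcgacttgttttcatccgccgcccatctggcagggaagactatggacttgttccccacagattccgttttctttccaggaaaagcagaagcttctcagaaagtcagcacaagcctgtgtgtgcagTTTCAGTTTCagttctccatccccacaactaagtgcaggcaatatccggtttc
Gbp3, chr3:142559794-142560043: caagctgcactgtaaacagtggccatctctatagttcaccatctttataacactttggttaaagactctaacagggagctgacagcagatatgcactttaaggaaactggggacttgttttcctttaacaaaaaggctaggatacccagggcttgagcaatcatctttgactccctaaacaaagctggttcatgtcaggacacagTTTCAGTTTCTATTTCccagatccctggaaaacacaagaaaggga
Gbp2b, chr3:142594597-142594846: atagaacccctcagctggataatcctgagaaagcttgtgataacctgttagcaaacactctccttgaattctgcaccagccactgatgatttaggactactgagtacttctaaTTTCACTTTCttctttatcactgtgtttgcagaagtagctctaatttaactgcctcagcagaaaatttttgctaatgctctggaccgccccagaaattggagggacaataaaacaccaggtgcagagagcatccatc
Gbp2, chr3:142620413-142620662: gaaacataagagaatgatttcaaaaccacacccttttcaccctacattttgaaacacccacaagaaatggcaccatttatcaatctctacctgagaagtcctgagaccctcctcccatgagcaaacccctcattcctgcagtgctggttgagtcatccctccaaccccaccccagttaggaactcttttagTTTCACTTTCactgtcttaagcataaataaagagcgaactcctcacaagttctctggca

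Each of the 5 genes had at least 1 window with an ISRE core. In Gbp3 a pair of overlapping matches began 45 and 39 bases before the start, and a second RefSeq window of Gbp3 (142560106 to 142560355) held none. The match began 53 bases before the start in Gbp7, 59 in Gbp2, 137 in Gbp2b and 165 in Gbp5. Of all 27025 genes with such windows 3.46% had the core. The GAS pattern TTCNNNGAA occurred in Gbp5 (245 and 52 bases before the start) and Gbp7 (106 and 87 bases before) and in neither window of Gbp3 nor in Gbp2b and Gbp2, against 8.13% of all genes. A match of letters is not evidence that a factor was bound. Gbp2b carried a core like Gbp2 and had at most 3 counts in a library. No upstream sequence of Gbp4, Gbp6, Gbp8, Gbp9 or Gbp10 was available, so these genes are named only.

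Of the 10 genes, 5 passed the filter on low counts and were tested, namely Gbp2, Gbp3, Gbp5, Gbp6 and Gbp7. When the untreated libraries were filtered on their own, Gbp3 alone passed, so the other four were tested because of their LPS-treated libraries. Gbp2b, Gbp4, Gbp8, Gbp9 and Gbp10 were not tested and are given as counts.

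**Figure D1:**
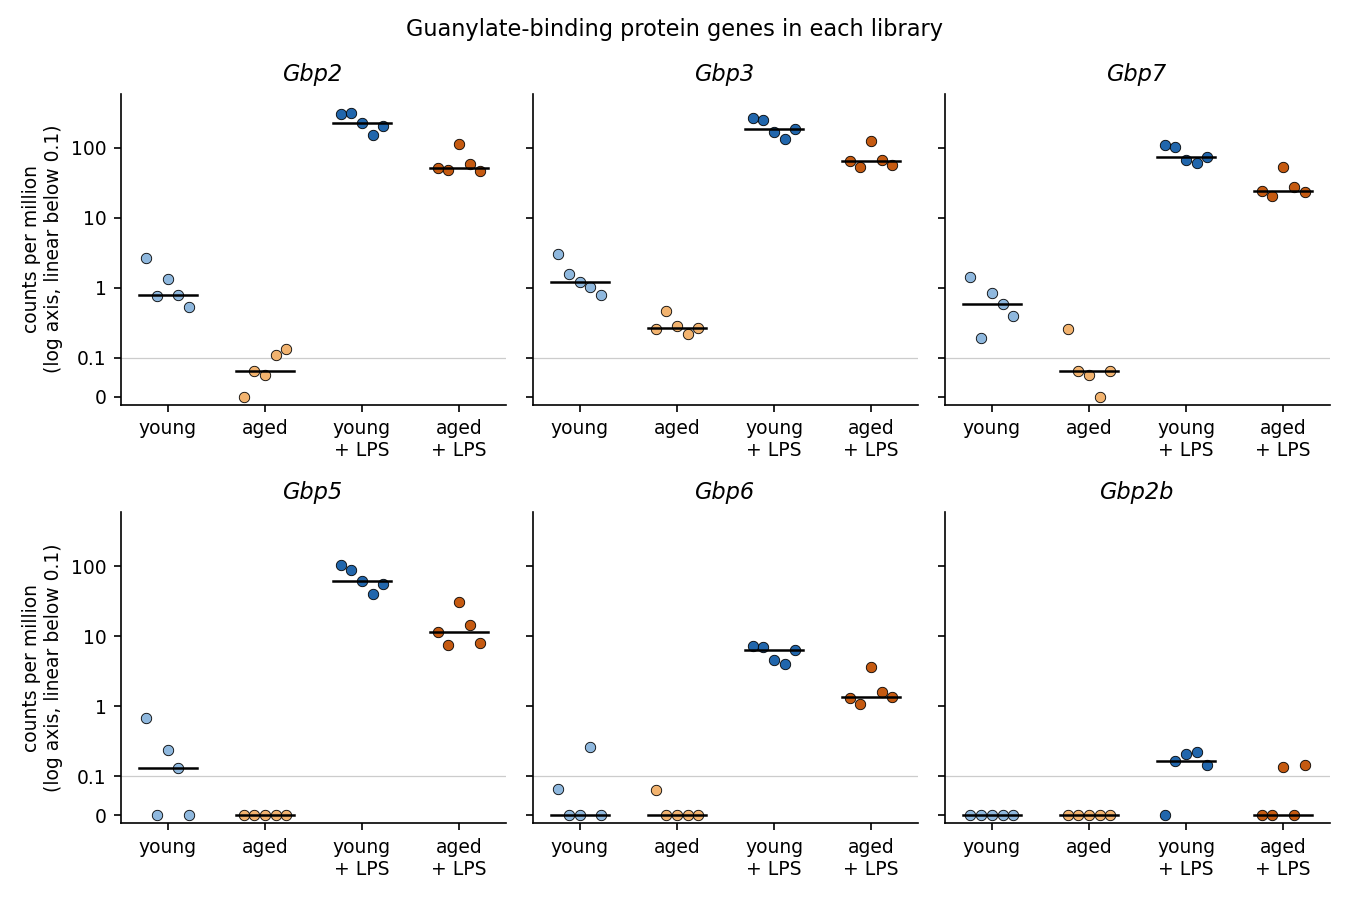
Level in CPM of 6 genes in each of the 20 libraries (log axis, linear below 0.1), 1 point per culture, ordered by batch 1 to 5 within a group, with the group median as a bar. LPS raised all but Gbp2b into the range of 1.07 to 315 CPM, and the aged LPS cultures lie below the young ones in every panel with the exception of Gbp2b.

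LPS took the 10 genes together from 26 to 115 counts in a young library to 5261 to 9228. Gbp2, a prenylated GBP that locates to bacteria and vacuoles, had 39, 12, 22, 12 and 8 counts in the untreated young libraries of batches 1 to 5 and 3129, 3793, 3323, 2036 and 2778 after LPS. Gbp3 went from 44, 25, 20, 16 and 12 counts to 2736, 3032, 2432, 1797 and 2513. Gbp7, which has been linked to assembly of the phagocyte NADPH oxidase, went from 21, 3, 14, 9 and 6 to 1117, 1243, 986, 821 and 1014. In all 3 genes every treated library lay far above every untreated one. Gbp5, which has been linked to assembly of the NLRP3 inflammasome, had 10, 0, 4, 2 and 0 counts untreated and 1078, 1068, 893, 549 and 774 with LPS. Gbp6 had 1, 0, 0, 4 and 0 counts untreated and 74, 86, 68, 54 and 88 with LPS. Again the groups did not overlap. The share of all genes tested that separated in this way was not counted, so the separation is given as description only. Gbp6 reached a level far below those of Gbp2, Gbp3, Gbp5 and Gbp7.

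On the scale of fitted log2 fold changes the young LPS response was 8.35 ± 0.59 (SE, n = 5 cultures per group) for Gbp5, 7.63 ± 0.35 for Gbp2, 7.04 ± 0.31 for Gbp3, 6.90 ± 0.34 for Gbp7 and 6.32 ± 0.49 for Gbp6. The value of Gbp5 was 9.40 without the young untreated library of batch 1, which held 10 of its 16 untreated reads, and that of Gbp6 was 8.00 without batch 4. Adjusted p in edgeR's quasi-likelihood test ran from 8.05e-15 for Gbp3 to 3.77e-10 for Gbp5. All 5 genes tested were called, and 31.2% of all genes tested were called as higher in this comparison. Gbp2, Gbp5, Gbp6 and Gbp7 entered the test through their LPS libraries, which favours a call as higher. The count of calls is therefore not read as a result against that share. As ratios of pooled CPM, Gbp2 rose 196-fold (95% counting interval 160 to 242), Gbp3 129-fold (108 to 156), Gbp7 118-fold (90.1 to 158), Gbp5 329-fold (203 to 577) and Gbp6 89.4-fold (38.0 to 277). These intervals cover counting error only.

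The aged cells answered LPS as well. Gbp2 had 0, 1, 1, 2 and 2 counts in the untreated aged libraries and 739, 581, 1658, 768 and 646 with LPS. Gbp3 had 4, 7, 5, 4 and 4 counts and then 913, 647, 1845, 863 and 792. Gbp7 had 4, 1, 1, 0 and 1 counts and then 340, 252, 770, 354 and 328. The third value, from the library of batch 3, was the highest of the treated group in each. Gbp5 had no count in any untreated aged library and 164, 91, 458, 191 and 112 with LPS. Gbp6 had 1 count in 1 untreated library and 19, 13, 53, 21 and 19 with LPS. The lowest count of a tested gene in any LPS library was thus 13.

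Gbp2 was 878-fold higher in aged cells with LPS (counting interval 403 to 2390), Gbp3 253-fold (170 to 395) and Gbp7 350-fold (170 to 872). Gbp5 was at least 406-fold higher, taking 3 counts over the 5 untreated libraries as the bound. Gbp6 was 150-fold higher with an interval of 26.4 to 5970, since its denominator was 1 read. The fitted log2 fold changes were 9.60 ± 0.52 for Gbp2, 8.30 ± 0.49 for Gbp7 and 7.92 ± 0.40 for Gbp3 (SE, n = 5 cultures per group, adjusted p from edgeR 1.51e-13 to 2.3e-12). Without batch 1 the value of Gbp7 was 9.17, and without the aged LPS library of batch 3 those of Gbp2, Gbp7 and Gbp3 were 9.28, 7.98 and 7.63. All 5 tested genes were called, where 27.5% of all genes were called as higher. The limit set by the filter on low counts holds for this count as well.

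Under LPS, the aged cells reached lower levels of all 5 tested genes. Gbp2 was at 309, 315, 229, 152 and 205 CPM in the young libraries of batches 1 to 5 and at 51.9, 47.9, 114, 59.5 and 46.7 CPM in the aged ones. Gbp3 was at 270, 252, 168, 134 and 185 CPM against 64.1, 53.4, 127, 66.8 and 57.3. For both, the lowest young library (batch 4) lay above the highest aged one (batch 3), by a small margin for Gbp3. Gbp5 was at 106, 88.6, 61.6, 41.0 and 57.0 CPM in young and 11.5, 7.51, 31.6, 14.8 and 8.10 CPM in aged cells. Gbp7 was at 110, 103, 68.0, 61.2 and 74.7 CPM against 23.9, 20.8, 53.1, 27.4 and 23.7. Gbp6 was at 7.31, 7.13, 4.69, 4.03 and 6.48 CPM against 1.33, 1.07, 3.66, 1.63 and 1.37. These ranges did not overlap either. Over all genes tested, 8.16% had every aged library below every young one under LPS.

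The fitted log2 fold change of aged against young LPS cultures was -2.25 ± 0.33 (SE, n = 5 per group) for Gbp5 with an adjusted p of 5.42e-05 from edgeR. It was -1.91 ± 0.22 for Gbp2 (edgeR, adjusted p = 1.86e-06) and -1.68 ± 0.29 for Gbp6 (adjusted p = 0.00014). Gbp7 had -1.48 ± 0.22 (adjusted p = 2.15e-05) and Gbp3 -1.45 ± 0.21 (adjusted p = 1.67e-05). All 5 tested genes were called lower, against 15.0% of all genes tested. In ratios of pooled CPM, young cells had 4.56 times the level of aged cells for Gbp5, 3.64 times for Gbp2, 3.14 times for Gbp6, 2.69 times for Gbp7 and 2.63 times for Gbp3. In these bulk cultures, fewer cells expressing a gene and less RNA per cell cannot be told apart.

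Batch by batch the young culture was higher in 5 of 5 pairs for each of the 5 genes, but by very different factors. For Gbp5 the ratio of young to aged was 9.25, 11.8, 1.95, 2.77 and 7.04 in batches 1 to 5. For Gbp2 it was 5.96, 6.57, 2.00, 2.55 and 4.38. Gbp6, Gbp7 and Gbp3 had their smallest ratios in the same batch 3, at 1.28, 1.28 and 1.32, and their largest in batch 2, at 6.65, 4.96 and 4.71. Without the aged LPS library of batch 3 the fitted difference was -2.75 for Gbp5, -2.23 for Gbp2, -2.11 for Gbp6, -1.80 for Gbp7 and -1.74 for Gbp3, and all 5 were again called. The age difference was therefore larger without this library.

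**Figure D2:**
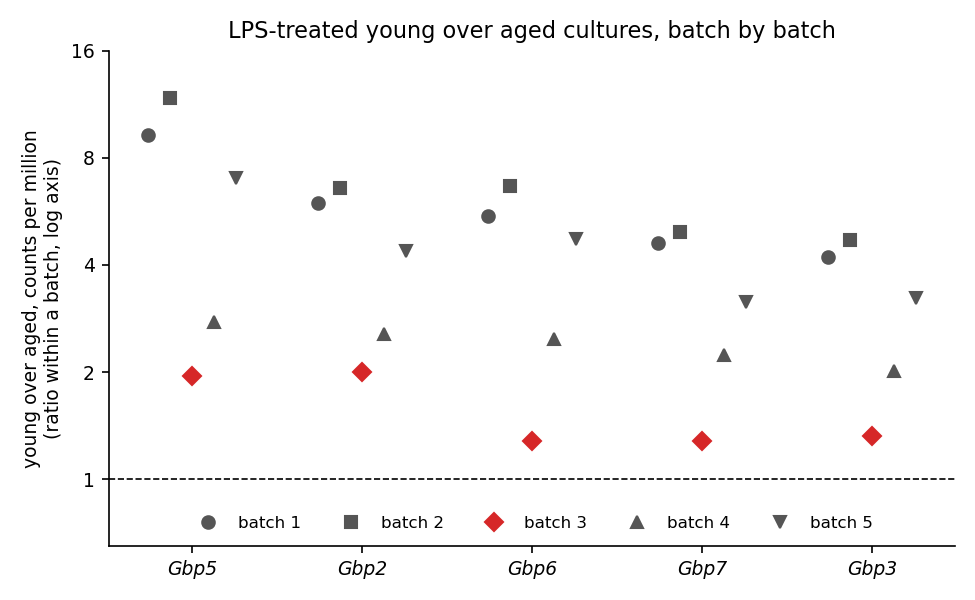
Ratio of young to aged LPS-treated cultures in CPM for the 5 tested genes (log axis), 1 point per batch, with batch 3 in red and a dashed line at equality. All 25 points lie above 1, batch 3 gives the smallest ratio of every gene (1.28 to 2.00), and batches 1 and 2 the largest.

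The library of batch 3 was not high for genes at large. It was the highest of the 5 aged LPS libraries for 25.1% of genes tested, and the median gene differed from the median of the other four by -0.01 on the log2 scale. The 5 tested GBP genes were higher there by a median of 1.16, the 7 tested immunity-related GTPases (highest there in 7 of 7) by 0.90, and the 19 tested genes of interferon signalling (highest in 17 of 19) by 0.35. Its total of 15251546 counts was the highest and its TMM factor of 0.952 the lowest of the 5 aged LPS libraries, where the others had 12528859 to 14793562 counts and factors of 0.957 to 0.973, and both lay within the range of all 20 libraries. What part the culture or the library had in these values was not tested.

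The make-up of the family under LPS was then set side by side in the 2 ages, a measure that does not depend on library scaling and was chosen after the values were seen. Gbp2 took 38.5% to 43.1% of the counts of the 10 genes in young LPS libraries and 33.9% to 36.7% in aged ones. Gbp3 took 31.6% to 35.1% in young and 38.5% to 41.9% in aged libraries, so that it replaced Gbp2 as the gene with most counts in all 5 aged cultures. Gbp5 took 10.4% to 13.2% in young and 5.74% to 9.57% in aged libraries. Gbp7 took 12.8% to 15.6% and 15.6% to 17.3%, with ranges that nearly touched. The mean shares of aged minus young libraries were -5.18 percentage points for Gbp2, 7.01 for Gbp3, -4.04 for Gbp5 and 2.25 for Gbp7, each with an exact two-sided permutation p of 0.00794, the smallest that 5 against 5 libraries can give, unadjusted over the 5 shares compared. The shares of a library add up to the whole, so lower shares of some genes force higher shares of others. The 4 differences are therefore not independent results. Each of the 4 differences had the same direction in 5 of 5 batches, but with the ages exchanged only within batches, as the pairing asks, the exact permutation p was 0.0625, the smallest that 5 pairs can give, so the paired test could not reach 0.05. For Gbp6 the shares were 0.882% to 1.23% and 0.821% to 1.11%, a mean difference of -0.0443 (exact permutation p = 0.595). Without the aged LPS library of batch 3 the 4 differences kept their direction (-5.13, 7.49, -4.56 and 2.28), with an exact permutation p of 0.0159.

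**Figure D3:**
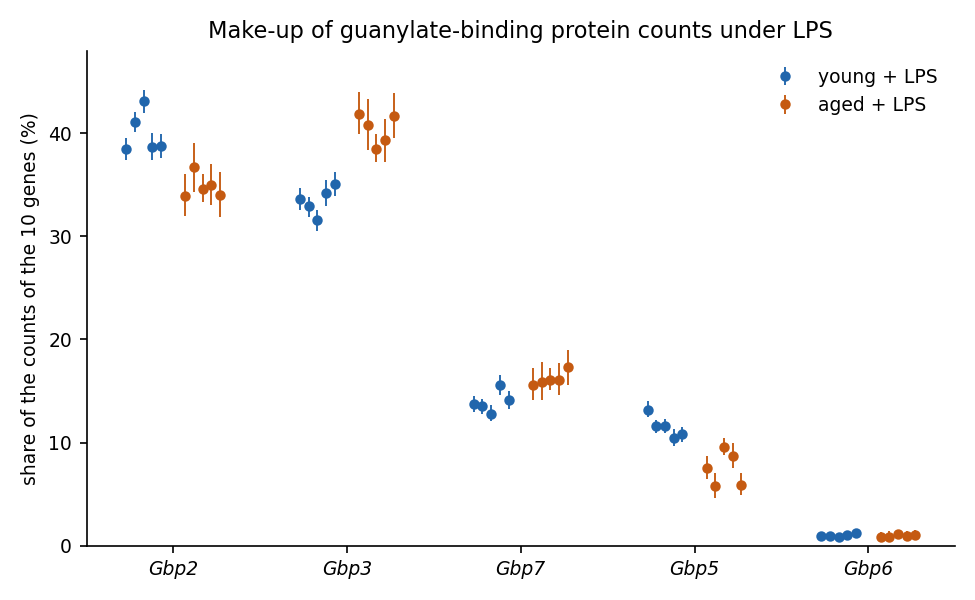
Share of each gene in the counts of the 10 genes (%) in the young and aged LPS-treated libraries, 1 point per library in the order of batches 1 to 5, with exact 95% binomial intervals for counting error. Gbp2 and Gbp5 hold smaller and Gbp3 a larger share in every aged library than in any young one, and Gbp6 stays near 1%.

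Without LPS the family was close to the floor, and the age difference had the same sign. The 10 genes together had 115, 40, 60, 43 and 26 counts in the young and 9, 9, 7, 6 and 7 counts in the aged untreated libraries of batches 1 to 5. Gbp2 was at 2.69, 0.767, 1.33, 0.791 and 0.533 CPM in young cells and at most 0.133 CPM in aged ones. Gbp3 was at 3.04, 1.60, 1.21, 1.05 and 0.799 CPM in young and 0.259, 0.471, 0.285, 0.220 and 0.266 CPM in aged cells. For these 2 genes no aged library reached a young one, against 6.63% of all genes tested. For Gbp7 the aged library of batch 1, at 0.259 CPM, lay above the young library of batch 2, at 0.192 CPM, so the groups overlapped.

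Gbp2 and Gbp3 were called lower in aged untreated cultures, with log2 fold changes of -3.88 ± 1.10 and -2.33 ± 0.73 (SE, n = 5 per group, edgeR, adjusted p = 0.0241 and 0.04). Of all genes tested, 7.81% were called lower in this comparison. Gbp7 did not pass, at -2.88 ± 1.02 (edgeR, adjusted p = 0.0719), but was called with no filter on low counts (edgeR, adjusted p = 0.0267) and without the aged LPS library of batch 3, which enters the shared estimate of spread (edgeR, adjusted p = 0.0171). Not called either were Gbp5 (adjusted p = 0.368) and Gbp6 (adjusted p = 0.467). Young cells had 16.3 times the pooled level of aged cells for Gbp2 (counting interval 7.23 to 45.7, from 93 and 6 counts), 5.14 times for Gbp3 (3.29 to 8.34) and 7.98 times for Gbp7 (3.62 to 20.8). For Gbp5, with 16 counts against none, the ratio was at least 5.62. DESeq2's Wald test called 4 of the genes, Gbp5 and Gbp7 included, where 8.15% of the genes it gave an adjusted p were called lower. Both edgeR calls were marginal. Without the young library of batch 1 the log2 fold changes were -3.40 for Gbp2 and -1.95 for Gbp3 and neither was called (edgeR, adjusted p = 0.0786 and 0.126). Without batch 2 neither was called although the changes were larger, at -3.99 and -2.51 (edgeR, adjusted p = 0.0614 and 0.0938). Without batch 4 or batch 5 Gbp2 was called, at -4.19 and -4.32, and Gbp3 was not, at -2.33 and -2.46 (edgeR, adjusted p = 0.0829 and 0.0688).

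The LPS responses of the 2 ages were then compared with each other as log2 fold changes. The fitted response was larger in aged cells by 2.4 ± 2.98 (SE) for Gbp5, 1.97 ± 1.27 for Gbp2 and 1.40 ± 1.10 for Gbp7. For Gbp3 it was larger by 0.88 ± 0.79 and for Gbp6 by 0.13 ± 0.39. None of the 5 tested genes was called in edgeR (adjusted p 0.439 for Gbp2 and higher for the rest). DESeq2 called none of the 4 to which it gave an adjusted p, and gave none for Gbp6. None of the 5 had an unadjusted p under 0.05 in edgeR. Among all genes tested 6.39% were called in either direction. These differences set high levels against untreated counts near 0, so their errors are wide. The lower LPS level in aged cells is the measured difference, and a smaller fold response was not shown.

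Levels per kb of exon ordered the family in the same way in both ages under LPS. In young cells Gbp2 was at 96.1 ± 27.7 CPM per kb (SD, n = 5), Gbp3 at 61.8 ± 17.6, Gbp7 at 14.9 ± 3.90, Gbp5 at 10.7 ± 3.95 and Gbp6 at 0.996 ± 0.249. In aged cells they were at 25.5 ± 11.3, 22.6 ± 9.30, 5.30 ± 2.36, 2.21 ± 1.49 and 0.304 ± 0.176 CPM per kb. The group ranges of Gbp2 and Gbp3 overlapped, as did those of Gbp7 and Gbp5, while Gbp3 was separated from Gbp7 and Gbp5 from Gbp6 in both ages. Gbp6 may be undercounted, since most of the sequence of the single transcript searched recurs in another gene. Within a library Gbp2 exceeded Gbp3 by 1.43 to 1.77 times in young cells and by 1.05 to 1.17 times in aged cells. With the longest transcript as the length, Gbp3 stood above Gbp2 in all 5 aged libraries (Gbp2 at 0.863 to 0.958 of Gbp3) and Gbp5 above Gbp7 in 4 of 5 young ones, so the order within these pairs depends on the gene model.

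The remaining members were at or under the floor in every library. Gbp2b, long called Gbp1 in mice, had 0, 2, 3, 3 and 2 counts in the young LPS libraries, 0, 0, 2, 0 and 2 in the aged ones and none in the 10 untreated ones. With no filter on low counts edgeR called Gbp2b higher with LPS in young cells, where the pooled level was at least 4.03-fold that of 3 counts. Young LPS cells had 2.65 times the aged level, with a counting interval of 0.766 to 11.6. Gbp9 had 4 counts in each LPS group, at most 2 in a library. Gbp10 had 2 counts in each of 2 young LPS libraries and no others. Gbp8 had a single count, in the aged LPS library of batch 3, and Gbp4 had none in 20 libraries, which allows at most 0.0471 CPM over the young LPS group. Other than that call of Gbp2b, no age or LPS difference of these genes was detectable at this depth.

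No pair of paralogs had near-identical counts, taken as agreement within 10% in every library where both had at least 10 counts. The closest pair in level was Gbp2 and Gbp3, whose ratio of Gbp3 to Gbp2 counts ran from 0.732 to 2.08 over 14 libraries. In coding sequence Gbp6 and Gbp10 were 98.4% identical (1803 of 1833 aligned bases), the other chromosome 5 pairs 89.7% to 92.9%, Gbp2 and Gbp2b 82.5% and Gbp3 and Gbp7 78.5%. Windows of 50 bases were taken from the transcript of each gene with the longest coding sequence, and its other exonic bases were not searched. Of those of Gbp6, 90.2% recurred in another gene, most often the gene model Gm43302, which spans both genes, or Gbp10. The share was 82.5% for Gbp10, 21.2% for Gbp8, 12.8% for Gbp4, 9.6% for Gbp9 and 1.8% to 5.2% for the chromosome 3 genes. The counting settings for reads with several alignments are not given in the sources used here, so Gbp6 and Gbp10 may have lost reads to each other or altogether, and their levels are uncertain.

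Annotated genes that overlap the members also took reads. Gm43302 spans chromosome 5 from 105214907 to 105293695, shares 1726 exonic bases with Gbp6 and 1792 with Gbp10, and had 33 to 56 counts in young LPS libraries and 8 to 29 in aged ones. Its counts were 0.544 to 0.789 of those of Gbp6 in the 9 libraries where both had at least 10. Gm43802, a processed pseudogene of 637 bases, lies wholly within exonic sequence of Gbp7 and has no base of its own, yet had 108 to 171 counts in young and 39 to 113 in aged LPS libraries, 0.110 to 0.155 of the Gbp7 count. Any read counted for it also lay on Gbp7 exonic sequence. Both followed the members in edgeR, with aged against young LPS log2 fold changes of -1.63 ± 0.28 for Gm43302 (adjusted p = 0.000602) and -1.37 ± 0.25 for Gm43802 (adjusted p = 0.000213). Of the other annotated neighbours Gbp11 had 6 counts in all, and Mir6381 and Gbp2-ps had none.

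**Figure D4:**
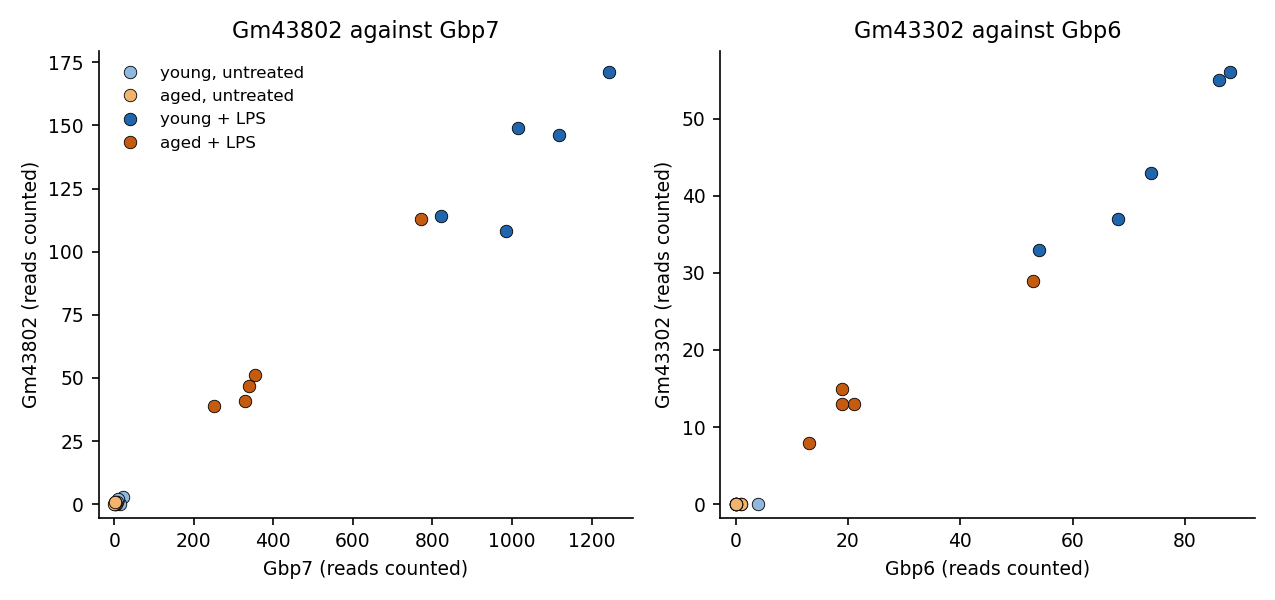
Reads counted for the pseudogene Gm43802 against Gbp7 and for the gene model Gm43302 against Gbp6, 1 point per library and coloured by group. In each panel the overlapping gene rises with the member it overlaps, up to 171 and 56 counts, and the untreated libraries lie near 0.

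Genes that act with GBPs were taken from 6 lists and are described by counts of calls, with the shares of all genes tested beside them. Listed genes with few untreated counts, such as Tgtp2 with none, can have entered the test through their LPS libraries. That favours a call as higher with LPS, so counts of genes higher with LPS are not read as a result against those shares. Immunity-related GTPases, which work beside GBPs on pathogen vacuoles, came closest to the family, and of 8 listed genes 7 were tested. All 7 were higher with LPS in each age, against 31.2% of all genes in young and 27.5% in aged cells. All 7 were lower in aged than in young LPS cultures, against 15.0% of all genes. Tgtp2 and Iigp1 were low in the aged LPS cultures, at 0.165 to 0.897 and 0.495 to 2.0 CPM. They can have passed the filter through the young LPS cultures alone, which favours a call as lower. Their median was -1.75, against 0.008 for all genes tested. Tgtp2 had -2.51 ± 0.35 and Gm12250 -1.95 ± 0.25, and the smallest changes were those of Irgm2 (-1.33 ± 0.17) and Irgm1 (-0.91 ± 0.12). None of the 7 was called between ages without LPS, but their median was -0.75 against -0.014 for all genes tested. Tgtp2 had no untreated count and could not be called, and Igtp came nearest to a call (-0.85, edgeR, adjusted p = 0.0507). Of 6 other dynamin-superfamily GTPases 3 were lower in aged LPS cultures, against 15.0% of all genes. They were the interferon-induced Mx1, Mx2 and Gvin1, at -2.27 ± 0.34, -1.77 ± 0.24 and -1.81 ± 0.30. The same limit of the filter holds for Gvin1, at 0.33 to 1.38 CPM in the aged LPS cultures. The atlastins, which shape the endoplasmic reticulum, were not called in that comparison.

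Of 21 genes of interferon signalling 19 were tested, and 16 were lower and none higher in aged LPS cultures, with a median of -0.57, where 15.0% of all genes were lower and 14.0% higher. Batf2 (-1.95 ± 0.22) and Stat2 (-1.34 ± 0.19) had the largest decreases, and Ifngr2 (-0.31 ± 0.05) and Jak1 (-0.11 ± 0.04) the smallest among the genes called. With LPS itself 16 of the 19 rose in young and 14 in aged cells, against 31.2% and 27.5% of all genes, with Irf7 at 6.39 ± 0.30 and 7.13 ± 0.36. Ifnb1, which encodes interferon-beta, was not tested, with 20 counts over the young and 10 over the aged LPS libraries and none untreated, and Ifng had no count in any library. In untreated cells 7 of the 19 were lower with age and none higher, against 7.81% of all genes lower, among them Irf7 (-1.89 ± 0.56), the factor that amplifies interferon production, and the receptor chain Ifngr1 (-0.36 ± 0.07). The LPS response itself differed with age for 4 of the 19, all raised less in aged cells. They were Stat2 (-1.23 ± 0.30), Irf1 (-0.85 ± 0.24), Jak2 (-0.69 ± 0.17) and Nlrc5 (-0.58 ± 0.13). Of all genes, 2.27% had a called negative difference, a share that can also hold genes that LPS lowered more in aged cells.

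Of 9 inflammasome and cytokine genes 8 were tested. In aged LPS cultures 7 of the 8 were lower and none higher, with a median of -0.80, against 15.0% of all genes lower. Pycard was not tested and had no count in any library. LPS raised 7 of the 8 in young and 6 in aged cells, against 31.2% and 27.5% of all genes. Il1b rose most, by 8.5 ± 0.75 and 8.04 ± 0.92. The cytokine genes Il1b (-2.25 ± 0.47) and Il1a (-1.94 ± 0.37) had the largest decreases, and Casp1 (-0.63 ± 0.08) and Nlrp3 (-0.59 ± 0.08) the smallest among those called. Already in untreated cells 3 of the 8 were lower with age and none higher, against 7.81% of all genes lower. They were Casp4, the mouse gene for caspase-11 (-0.79 ± 0.17), Gsdmd (-0.36 ± 0.08) and Nlrp3 (-0.37 ± 0.09). Of 10 genes of the ubiquitin-like conjugation system 3 were lower and 1 was higher in aged LPS cultures, against 15.0% and 14.0% of all genes, with a median of -0.11 and Gabarapl1 at -0.38 ± 0.08 as the lowest. Of 6 genes of prenylation and CaaX processing, which attach lipid to some GBPs, none was lower and Icmt (0.24 ± 0.05) and Fntb (0.22 ± 0.06) were higher, where 14.0% of all genes were higher.

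**Figure D5:**
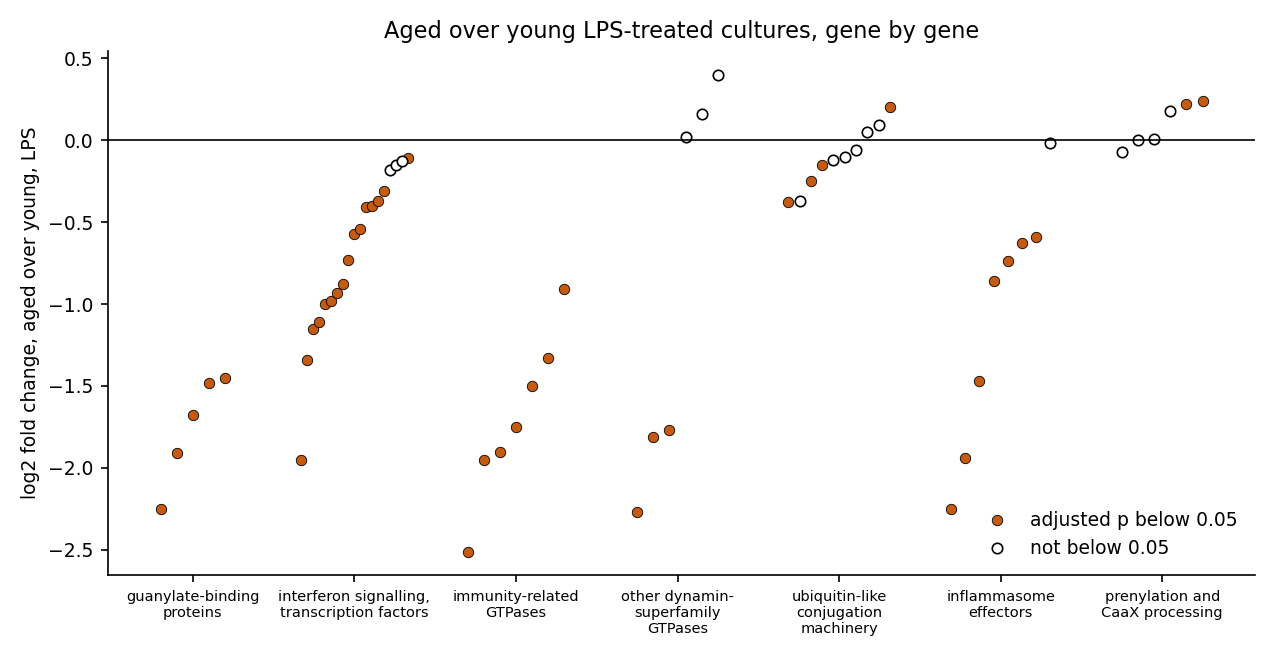
Log2 fold change of aged over young LPS-treated cultures for each tested gene of the family and of the 6 lists, 1 point per gene, filled where the adjusted p from edgeR was below 0.05. The 5 GBP genes lie between -2.25 and -1.45 and the 7 immunity-related GTPases between -2.51 and -0.91, while conjugation and prenylation genes lie near 0.

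Over the 20 libraries the genes outside the family whose log2 CPM was most like the mean of the 5 tested members were Parp14, Rnf213, Ddx58, Ccl5 and Helz2 (Pearson r 0.995 to 0.998), values that include the step between the 10 untreated and the 10 LPS-treated libraries. With group means removed the closest were Rnf213 (r = 0.908), Nos2 (0.889), Zbp1 (0.889), Ifi209 (0.888) and Parp14 (0.870). Rnf213 and Parp14 were on both lists. These values describe 20 libraries and carry no test.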

How the data were processed

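RNA-seq was performed on 20 BV-2 cultures in 4 groups of 5. The authors made stranded libraries from poly(A) RNA, sequenced paired ends, aligned reads with STAR 2.6.1d to GRCm38, counted them per gene with featureCounts 1.5.1 and deposited the counts without normalization. The settings for strand, overlapping genes and multiple alignments are not given in the sources used here. Samples were matched to columns by the labels. Symbols and coordinates came from the GENCODE annotation of GRCm38 (55141 of 55487 identifiers matched), upstream sequences from RefSeq (GRCm38.p6).

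Genes were tested across all 20 libraries by quasi-likelihood in edgeR 4.0.16 under R 4.3.3 (with limma 3.58.1 loaded), taking group as the only factor, TMM normalization, filterByExpr (12799 genes kept) and Benjamini-Hochberg adjustment over all genes, called below an adjusted p of 0.05. SE is the log2 fold change divided by the root of F. Log2 CPM used a prior count of 2. Alternatives were DESeq2 1.42.0, its size factors or library sizes alone, no filter on low counts, a replicate block, only the groups compared, and each replicate number left out. Leaving out the aged LPS library of replicate 3 or the young untreated one of replicate 1, and the shares within the family with their test within batches, were chosen after seeing the data. Shares have exact (Clopper-Pearson) binomial intervals and exact permutation tests.

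The replicate number is the batch in the labels, so it pairs cultures. After subtraction of group means, cultures of one batch correlated across genes by 0.146 on average (-0.214 to 0.394). No 2 replicates agreed within sampling noise (chi-square per degree of freedom 2.31 to 24.4 over 40 pairs). The tests were tested on simulated data first. Sequences were searched with Biopython 1.88 and figures drawn with matplotlib 3.10.9. The rest used scipy 1.17.1, numpy 2.4.6 and pandas 2.3.3 in Python 3.11.15.

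Members, gene lists and tests were chosen with earlier results of these data known. All 10 members are named, and of each list the 2 genes with the highest and the 2 with the lowest change among those called, plus the 5 genes most correlated with the family by each measure. Ifnb1, Ifng, Iigp1, Igtp, Pycard, Cx3cr1, P2ry12 and Tmem119 were named beyond this rule.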

Additional observations from a re-analysis of the deposited data

Results flagged for a closer look

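Of 17 gene and group combinations with more than 3 counts in a library, 7 had a library far from the rest of its group by Dixon's criterion, which flags about 1 in 20 by chance. Of these, 4 were values of the aged LPS library of batch 3, the highest of its group: Gbp2 at 114 CPM (next 59.5), Gbp3 at 127 (next 66.8), Gbp7 at 53.1 (next 27.4) and Gbp6 at 3.66 (next 1.63). They come from 1 library and are not independent of each other. This library was the highest of its group and as far from the rest for 2.66% of all genes tested, against 0.32% to 0.609% for the other aged LPS libraries. The others were near the floor. Gbp3 was at 0.471 CPM in the aged untreated library of batch 2 (7 counts, next 0.285), Gbp7 at 0.259 CPM in that of batch 1 (4 counts, next 0.0673) and Gbp6 at 0.264 CPM in the young untreated library of batch 4 (4 counts, next 0.069).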

How the results depend on the processing

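The calls of Gbp2, Gbp3, Gbp5, Gbp6 and Gbp7 in both LPS responses and between ages under LPS held, with the same direction, in each alternative run. Between untreated ages 2 members were called, but 4 with DESeq2, 3 with no filter on low counts or without the aged LPS library of replicate 3 (Gbp7 added in both), 1 with only the groups compared (Gbp3, the sole member that passed the filter there) and 0 without the young untreated library of replicate 1, and the count ran from 0 to 2 when each replicate number was left out. Library sizes alone moved the median of all genes to -0.23 for LPS in young and -0.16 in aged cells, and the members' changes are far larger than this shift. The small difference of the LPS responses of Gbp6 (0.13) ran from -1.74 (without replicate 4) to 1.60 (without replicate 1) when each replicate number was left out, with -0.29 without replicate 3, and was -0.30 without the aged LPS library of replicate 3. Its share difference of -0.0443 ran from -0.112 (without replicate 3) to 0.00148 (without replicate 5). With ages exchanged only within batches, the share differences of Gbp2, Gbp3, Gbp5 and Gbp7 had an exact permutation p of 0.0625. With the replicate block in edgeR no call of a member changed (Gbp2 and Gbp3 between untreated ages, edgeR, adjusted p = 0.0169 and 0.037), and all genes called between untreated ages rose from 1475 to 2204. Over all alternatives, adjusted p for Gbp2 and Gbp3 between untreated ages ran from 1.53e-06 to 0.138 and from 1.29e-05 to 0.179. Counts under 3 in a library lie below the floor taken here. Ratios that rest on them, as for Gbp2 and Gbp5 in aged untreated cells, are uncertain in size. For the 5 members not tested, no difference was detectable at this depth other than the call of Gbp2b with no filter.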
